A study of Mus musculus with 47 samples.

Results

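Gene levels after LPS were compared with those after IL-4 in wild-type (WT) bone marrow-derived macrophages (BMDMs), that is, in macrophages differentiated in a dish from marrow progenitors. The comparison rests on 2 of the 47 samples of the series, 1 RNA-seq library per treatment, and it was chosen by the labels and not by a measured value. It covers all 51912 genes held by both deposited gene tables, joined on the Ensembl gene ID, of which 13236 had a mean of at least 10 counts over the LPS and IL-4 libraries and were compared. WT cells came from C57BL/6 mice that carried floxed Zmynd8 alleles without Cre, and their age is not given in the sources used here. The cells were cultured with 20 ng/ml M-CSF for 5 days and then treated for 6 h with 100 ng/ml LPS (the M1 library) or with 20 ng/ml IL-4 (the M2 library). The labels name only LPS and vehicle as treatments, and IL-4 as the treatment of the M2 library was taken from the study's text. Untreated WT cells (NT) gave a further library, and cells from mice with Cre in the Lyz2 locus (Zmynd8 cKO), in which Cre removes exons 6 and 7 of Zmynd8 in myeloid cells, gave 1 library for each of the same 3 conditions. By the study's methods each library was a mixture of 3 biological replicates, so the difference between LPS and IL-4 has no replicate check, and no value below comes with a test of the conditions.

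LPS is a component of the outer membrane of Gram-negative bacteria. It is sensed by the receptor TLR4, which acts through the adaptor MyD88 on NF-κB and through the adaptor TRIF on IRF3, and the interferon-β that follows acts back on the cell through its own receptor. IL-4 is a cytokine of type 2 immunity that acts through the IL-4 receptor and STAT6. The states that follow are known as classical (M1) and alternative (M2) activation, and in mouse macrophages they are commonly told apart by the arginine-using enzymes inducible nitric oxide synthase (Nos2) and arginase 1 (Arg1).

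The defining enzymes of both states stood on opposite sides. Nos2 (ENSMUSG00000020826, chr11:78920787-78960226, GRCm38.p6) had 8.74 CPM (counts divided by the library total and scaled to 1000000) in the untreated WT library, 7472 CPM after LPS and 1.23 CPM after IL-4. The LPS library held 186078 Nos2 counts and the IL-4 library 35, a 6060.3-fold difference with exact Clopper-Pearson 95% limits on the reads of 4357 and 8701, which cover counting error only. Its listed length was 648 bases in the table of the LPS library and 4192 bases in that of the IL-4 library. The deposited TPM were 2508 and 0.440, close to proportional to the counts, and so did not follow the gap in listed length. Arg1, which turns arginine into ornithine and urea, had 0.763 CPM without treatment, 26.5 CPM after LPS and 1500.4 CPM after IL-4. Its level was 56.7-fold higher after IL-4 than after LPS (95% limits 52.5 and 61.3). Nos2 was thus lower after IL-4 than without treatment, while Arg1 was above its untreated level in both treated libraries. In Zmynd8 cKO cells Nos2 had 4.25, 7391 and 7.16 CPM and Arg1 had 0.620, 19.4 and 1541 CPM in the same order of libraries.

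**Figure D1:**
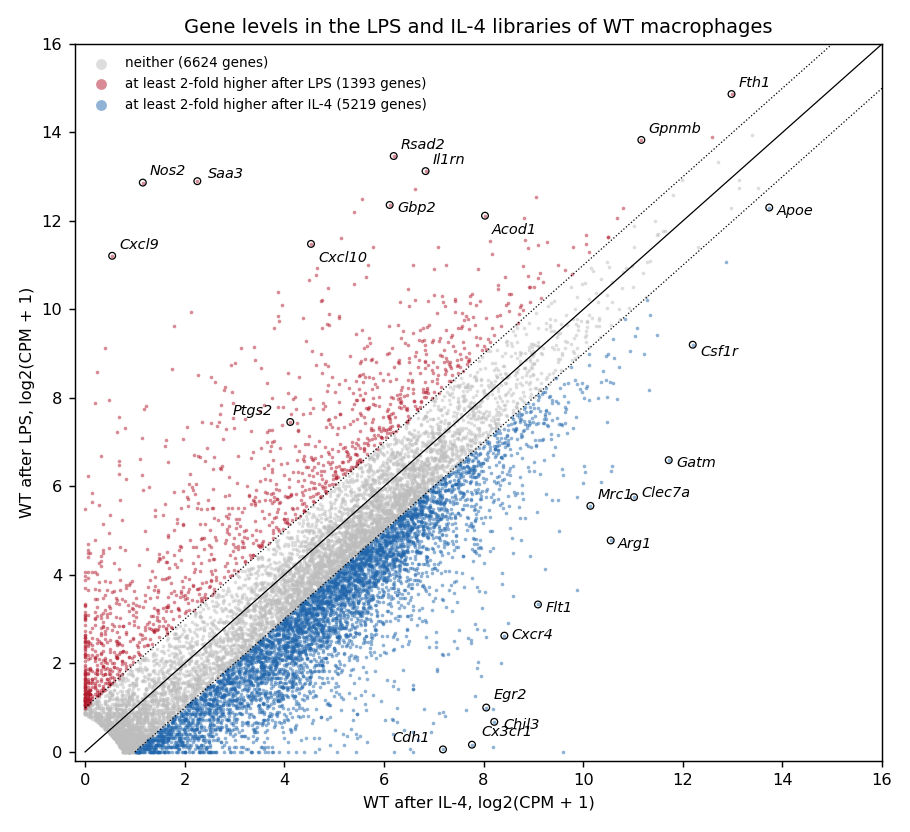
Each point is 1 of 13236 genes, with its level in WT macrophages after IL-4 on the x axis and after LPS on the y axis, both as log2(CPM + 1); dotted lines mark a 2-fold difference. Nos2, Cxcl9 and Saa3 lie high on the left, Arg1, Egr2, Chil3 and Cdh1 lie low on the right, and most points lie below the line of equal levels.

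Library totals were between 22597408 and 28386612 counts in the 6 BMDM libraries, with 24902775 after LPS and 28386612 after IL-4 in WT cells, so that 1 read was worth 0.0402 and 0.0352 CPM. The 20 most abundant genes held 19.0% of the counts of the LPS library and 12.6% of those of the IL-4 library. The values for LPS and IL-4 come from separate tables, and the IL-4 libraries carry sheet numbers (62 and 63) apart from those of the other 4 libraries (91 to 94). The listed gene length differed between the tables for 10457 of the 13236 genes, and 20 genes had no count in any untreated or LPS library but at least 50 counts in each IL-4 library, while 0 genes showed the opposite. Each treatment has a table of its own, and the lengths differed between the tables of the untreated and LPS libraries for 0 of these genes. The treatment and the table therefore cannot be told apart in any difference from the IL-4 libraries, those 20 genes included. All 8 macrophage markers were measured, of which 2 were higher after LPS and 2 after IL-4 (3 and 1 under the median ratio), and Lyz2, Cd68 and the lineage factor Spi1 differed by less than 2-fold under library totals. Markers of T cells, mast cells, fibroblasts and red cells were at or near 0, apart from the T cell marker Cd4 with 406 counts after LPS and 144 after IL-4. The summed level of 4 B cell markers was 1.53, 0.843 and 11.1 CPM in WT and 4.69, 0.854 and 17.2 CPM in cKO cells (untreated, LPS, IL-4), most of it from Cd79b. That of 6 dendritic cell markers was 1.72, 15.8 and 5.85 CPM in WT. Of 5 measured, 3 were higher after LPS and 1 after IL-4 (3 and 0 under the median ratio). The part of such cells in the differences was not tested. Zmynd8 itself had 87.1, 79.0 and 128 CPM in WT and 81.5, 86.8 and 151 CPM in cKO cells (untreated, LPS, IL-4). These gene-level counts include exons outside the deleted part and do not check the deletion.

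A gene was called when its log2(CPM + 1) differed by at least 1, a 2-fold difference. By that rule 1393 of the 13236 genes (10.5%) were higher after LPS, 5219 genes (39.4%) were higher after IL-4 and 6624 genes were neither. The median gene was lower after LPS, with a log2 difference (LPS minus IL-4) of -0.745. Scaling by the median of the gene ratios in place of the library totals added 0.917 to the LPS side, as the shift between the scalings was -0.917 on the log2 scale, and gave 2624 genes (19.8%) higher after LPS and 2143 genes (16.2%) higher after IL-4. Calls on the LPS side thus made up 21.1% of all calls under library totals and 55.0% under the median ratio, so both counts are given for gene groups and the all-gene percentages above are the background to them. Of the genes named below on the IL-4 side, Abca1, Adgre1, Apoe, C1qc, Ccl22, Cxcl2, Eef1a1, H2-DMb2, Ifi30, Nfe2l2, Tgfb1 and Tlr4 were called under library totals and not under the median ratio. Of those named as less than 2-fold apart, Actb, Ass1, Gvin1, H2-K1, Irak3, Irf8 and Nfkbia passed 2-fold on the LPS side under the median ratio. The larger differences were spread more evenly: 71 genes were at least 32-fold higher after LPS and 61 after IL-4, and 31 and 22 genes passed 64-fold. Genes called higher after LPS held 43.6% of the LPS library's counts against 8.38% of the IL-4 library's, and genes called higher after IL-4 held 42.8% and 11.8% of the counts of the IL-4 and LPS libraries.

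Against the untreated WT library, by the same rule and over the same genes, 1345 genes (10.2%) were higher and 4162 genes (31.4%) lower after LPS, and 1314 genes (9.93%) were higher and 773 genes (5.84%) lower after IL-4. Both comparisons share the untreated library. The percentages in this paragraph are the background to all counts of list members against the untreated library below. Under the median ratio of each pair of libraries, 2325 genes (17.6%) were higher and 1959 genes (14.8%) lower after LPS, and 1079 genes (8.15%) were higher and 989 genes (7.47%) lower after IL-4, so the excess of genes lower after LPS was there under library totals and not under the median ratio.

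Where the mean count was 100 or more, the 15 genes with the highest log2 difference to the LPS side were Nos2, Cxcl9, Saa3, Tgtp1, Clic5, Gbp4, Ifit1bl1, Cnn3, Cxcl11, Rsad2, Cxcl10, Cmpk2, Marco, Il12rb1 and Ccl5. Most of these are interferon-inducible genes, chemokines or GTPases of cell-autonomous defence, and the others include the scavenger receptor Marco, the chloride channel protein Clic5, the actin-binding calponin Cnn3 and the IL-12 receptor subunit Il12rb1. Saa3, an acute-phase serum amyloid protein, had 30.3 CPM without treatment, 7641 CPM after LPS and 3.77 CPM after IL-4 (log2 difference 10.65). Cxcl9, a ligand of the receptor CXCR3, had 4.16, 2372 and 0.458 CPM (10.67). Clic5 had 2.10, 381 and 0.176 CPM (8.34), and its IL-4 level lay below the untreated level, as did that of Cxcl9 and Saa3.

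The 15 genes with the highest log2 difference to the IL-4 side were Gm28439, Pald1, Cx3cr1, Chil3, Tbc1d16, Cdh1, Egr2, Ptgs1, Gm24798, Dusp4, S100a9, Chst7, Ngp, Olfml3 and Plxdc2. Gm28439 and Gm24798 belong to the 20 genes without a count in any untreated or LPS library, with 21979 and 2693 counts after IL-4 in WT. Of the others, Chil3 (Ym1), the adhesion molecule Cdh1 (E-cadherin) and the zinc-finger factor Egr2 are known IL-4-responsive genes, Cx3cr1 is the fractalkine receptor and Ptgs1 is cyclooxygenase 1. Pald1, a phosphatase-like protein, had 3.66 CPM without treatment, 0.0803 CPM after LPS and 292 CPM after IL-4. The GTPase-activating protein Tbc1d16 had 11.4, 0.964 and 292 CPM, and the MAP kinase phosphatase Dusp4 had 52.0, 1.41 and 225 CPM. S100a9 and Ngp are neutrophil granule or cytosol genes. All 7 neutrophil markers measured (Elane, Camp, S100a8, Mpo, Ltf, Ngp and S100a9) were higher after IL-4 in both genotypes, and all 7 under the median ratio in WT. The summed level of the 8 listed markers was 2.33, 4.22 and 382 CPM in WT and 2.35, 2.56 and 514 CPM in cKO cells (untreated, LPS, IL-4). Elane is 1 of the 20 genes without a count in any untreated or LPS library, with 142 counts after IL-4 in WT and 219 in cKO cells. The remaining marker, Ly6g, had 0 and 3 counts after LPS and IL-4 in WT. These genes moved with the IL-4 libraries, and their part in the other differences was not tested.

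By absolute level, the largest differences to the LPS side were those of Fth1, Gpnmb, Rsad2, Psap, Il1rn, Saa3, Nos2, Ifit2, Cmpk2 and Prdx1. The ferritin heavy chain Fth1 had 16278 CPM without treatment, 29905 CPM after LPS and 8067 CPM after IL-4. The melanosomal glycoprotein Gpnmb had 22288, 14571 and 2299 CPM, so its difference (6.34-fold) lay mainly in a level after IL-4 far below the untreated one. On the IL-4 side the 10 largest under library totals were Apoe, Eef1a1, Ftl1, Csf1r, Gatm, Ctsd, Tmsb4x, Prkcd, Adam8 and Lyz2. Apolipoprotein E had 6003, 5052 and 13637 CPM, and the M-CSF receptor Csf1r had 1731, 588 and 4702 CPM. Gatm, the first enzyme of creatine synthesis and another enzyme that uses arginine, had 77.6, 95.7 and 3367 CPM, and was 35.2-fold higher after IL-4 than after LPS. In bulk samples, a difference in the number of cells that express a gene and a difference in its RNA per cell cannot be told apart.

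Of 23 measured markers of classical activation, 22 were called higher after LPS and 0 higher after IL-4, with a median log2 difference of 4.01. The exception was Irak3, an inhibitor of the Toll-like receptor pathway, with 56.7 and 29.3 CPM. The list held cytokines, chemokines, surface receptors and enzymes, and under the median ratio all 23 were higher after LPS. Cd86, a costimulatory ligand of CD28 on T cells, had 26.1 CPM without treatment, 699.8 CPM after LPS and 42.6 CPM after IL-4. Complement factor B (Cfb) had 16.4, 1624 and 21.5 CPM, and Acod1, which makes itaconate from cis-aconitate, had 56.3, 4447 and 260.2 CPM. Against the untreated library, 22 of these markers were higher after LPS, and 7 were higher and 3 lower after IL-4 (22, 6 and 4 under the median ratio). Ptgs2, cyclooxygenase 2, was among those higher in both treated libraries, with 0.916, 175 and 16.4 CPM.

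Of 28 measured markers of alternative activation, 20 were called higher after IL-4 and 3 higher after LPS, with a median of -3.09. Under the median ratio the counts were 18 and 5. Against the untreated library, 12 of these markers were higher and 7 lower after LPS, and 20 were higher and 3 lower after IL-4. With the median ratio these were 13, 7, 20 and 3. Chil3 had 0.687 CPM without treatment, 0.602 CPM after LPS and 296 CPM after IL-4, and Cdh1 had 0.534, 0.0402 and 145 CPM. Both were near 0 in the untreated and LPS libraries of both genotypes, and Chil3, which neutrophil precursors also express, moved with the neutrophil markers given above. Egr2 had 25.5, 1.00 and 265 CPM, the β-glucan receptor Clec7a (dectin-1) had 179, 53.2 and 2077 CPM, and the mannose receptor Mrc1 had 444, 46.2 and 1131 CPM. For these 3 genes the untreated level lay between those of the treated libraries, so the ratio of LPS to IL-4 held a lower level after LPS as well as a higher level after IL-4. The VEGF receptor Flt1 had 1.91, 9.08 and 545 CPM, and the PD-1 ligand Pdcd1lg2 had 0.0382, 7.47 and 78.9 CPM. Their level after LPS was above the untreated one, as was that of Arg1. Retnla (Fizz1) had 85 counts and the chemokine Ccl17 189 counts after IL-4 and 0 after LPS, at least 24.9-fold and 55.3-fold higher when the LPS library is set at a floor of 3 counts. The 3 members higher after LPS were the IL-1 receptor antagonist Il1rn (8945 against 113 CPM), the IL-4 receptor subunit Il4ra (1275 against 127 CPM) and transglutaminase 2 (Tgm2, 1226 against 568 CPM). Il1rn had 567 CPM and Il4ra 114 CPM in the untreated library, where Il4ra thus lay near its level after IL-4.

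**Figure D2:**
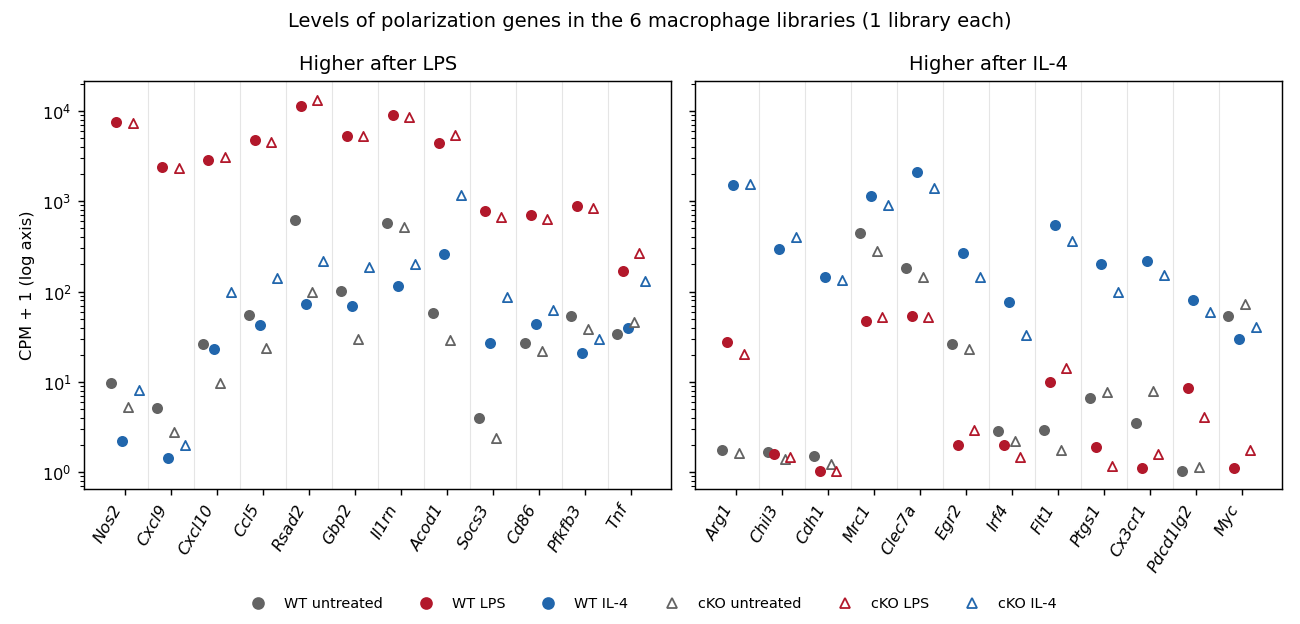
Levels of 12 genes higher after LPS (left) and 12 higher after IL-4 (right) in the 6 macrophage libraries, as CPM + 1 on a log axis, with circles for WT and triangles for Zmynd8 cKO (1 library each, no error bars). In each genotype the LPS library lies above the IL-4 library for every gene on the left and below it for every gene on the right, and untreated Mrc1, Clec7a and Egr2 lie between both.

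Other genes of arginine use and transport lay on both sides. Of 13 measured arginine and polyamine genes, 2 were higher after LPS and 7 after IL-4 (4 and 3 under the median ratio). The other gene on the LPS side was Gch1, which starts the synthesis of the Nos2 cofactor tetrahydrobiopterin, with 45.4, 124 and 20.5 CPM. The arginine transporter Slc7a2 was high in both treated libraries, with 13.4, 688 and 1069 CPM, and argininosuccinate synthase Ass1, which rebuilds arginine from citrulline, had 38.4, 147 and 132 CPM. Both differed by less than 2-fold between LPS and IL-4. The other arginine transporter, Slc7a1, was low after LPS only, with 52.6, 7.75 and 44.2 CPM. Spermidine synthase (Srm) had 43.8, 0.562 and 14.2 CPM, so both treated libraries lay below the untreated one and the LPS library was the lowest.

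Chemokines lay on both sides. Of 22 measured, 10 were higher after LPS and 6 after IL-4 (12 and 3 under the median ratio). The CXCR3 ligands Cxcl9, Cxcl10 and Cxcl11 led the LPS side, and Cxcl10 had 25.4 CPM without treatment, 2859 CPM after LPS and 22.2 CPM after IL-4. Ccl5, which attracts T cells and monocytes, had 54.0, 4745 and 41.4 CPM. The CCR2 ligand Ccl2 had 245, 766 and 12.8 CPM, and Ccl7 had 208, 624 and 20.7 CPM, so for both the level after IL-4 was well under the untreated one. Beside Ccl17, the IL-4 side held Cxcl14 (8.32, 0.361 and 94.8 CPM), the other CCR4 ligand Ccl22 (1.64, 43.8 and 98.8 CPM) and the neutrophil attractants Cxcl2 and Cxcl3. Cxcl3 had 0.610, 1.33 and 21.0 CPM. Cxcl2 and Ccl22 lost their call under the median ratio, with log2 differences of -0.65 and -0.25 in place of -1.48 and -1.16.

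Cytokine genes stood mostly on the LPS side, with 21 of 26 measured higher after LPS and 3 higher after IL-4 (23 and 2 under the median ratio). Il10, the anti-inflammatory cytokine, had 1.98 CPM without treatment, 62.4 CPM after LPS and 1.44 CPM after IL-4, and the IL-27 subunit Il27 had 1.11, 88.7 and 0.599 CPM. Tnf had 33.1, 169 and 38.7 CPM, Il1b had 1.60, 65.3 and 13.2 CPM, and Il6 had 0.0763, 13.3 and 0.211 CPM. Il6 and Il1b were thus low in absolute level at this time, and Il1b was above its untreated level in both treated libraries. Ifnb1, which encodes interferon-β, had 61 counts after LPS and 0 after IL-4, at least 23.2-fold higher on the LPS side by the floor of 3 counts. The 3 members on the IL-4 side were growth factors: Igf1 with 680.3, 81.0 and 1517 CPM, Pdgfb with 111, 9.40 and 176 CPM, and Tgfb1 with 278, 128 and 346 CPM. For all 3 the LPS library was the lowest of the WT libraries under library totals, and Tgfb1 lost its call under the median ratio, with a log2 difference of -0.51 in place of -1.42.

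Interferon-response genes stood on the LPS side without exception. All 36 measured were higher after LPS, with a median log2 difference of 3.16, and 36 were called under the median ratio. Rsad2 (viperin), which blocks viral replication, had 621 CPM without treatment, 11329.8 CPM after LPS and 72.3 CPM after IL-4. Its neighbour on the chromosome, the nucleotide kinase gene Cmpk2, had 318, 5753 and 46.2 CPM, and the RNA-binding Ifit2 had 698, 6715 and 97.9 CPM. For these genes the IL-4 library was the lowest of the WT libraries. Across the list, 33 members were higher after LPS than without treatment, and 17 were lower and 0 higher after IL-4 than without treatment (36, 21 and 0 under the median ratio). The summed level of the list was 9778, 60805 and 4433 CPM in WT and 3429, 59753 and 7111 CPM in cKO cells (untreated, LPS, IL-4), so the IL-4 library lay below the untreated one in WT and above it in cKO cells. The untreated WT library held more of these transcripts than the untreated cKO library, as in Rsad2 (621 against 97.9 CPM), while the LPS libraries were close (11329.8 and 13284 CPM).

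The interferon-inducible GTPases of the GBP and IRG families, which attack the vacuoles of intracellular microbes, also stood on the LPS side. Of 17 measured, 16 were higher after LPS and 0 after IL-4, with a median of 4.82, and the remaining gene, Gvin1, stood just under the threshold at 0.99 and passed it under the median ratio. Compared with untreated cells, 17 of the 17 were higher after LPS and 4 lower after IL-4 (17 and 5 under the median ratio), and the summed level after IL-4 was below the untreated one in WT (695 against 1021 CPM) and above it in cKO cells (1212 against 274 CPM). Gbp2 had 99.5, 5262 and 68.3 CPM, and Tgtp1 had 1.37, 558 and 0.317 CPM. Members of these families are near-identical in sequence in part, so reads may have been split among them. The Schlafen family, another interferon-inducible group, had 6 of 7 measured members higher after LPS and 0 after IL-4 (7 and 0 under the median ratio).

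RefSeq promoter windows (GRCm38.p6, 250 bases before to 50 after the start) were found for 9622 of the genes compared, in 12259 windows, and were searched on both strands for an interferon-response-type motif, GAAA and GAAA with 2 bases of any kind between. It stood in 3.47% of all windows of genes compared, in 9.58% of 1284 windows of genes called higher after LPS, in 2.52% of 5082 windows of genes called higher after IL-4 and in 23.1% of the 108 windows of genes at least 16-fold higher after LPS. A STAT6-type motif, TTC and GAA with 4 bases between, stood in 5.49% of all windows of genes compared, 6.54% of those called on the LPS side, 5.45% of those called on the IL-4 side, 11.1% of the windows of genes at least 16-fold higher after LPS and 4.03% of the 124 windows of genes at least 16-fold higher after IL-4. An NF-κB-type motif, GGGA and TTCC with 2 bases between, stood in 1.62%, 1.95%, 1.44% and, for genes at least 16-fold higher after LPS, 6.48%. Among all 32851 RefSeq windows the interferon, STAT6 and NF-κB shares were 3.44%, 6.95% and 1.47%. The motifs can overlap one another, and a match describes the window and not a bound site.

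The 250 bases upstream of 3 genes from the LPS side and 2 from the IL-4 side that hold such a match are shown 5′ to 3′ on the strand of the gene, with the matched letters in capitals. Those of Cxcl10 (chr5:92348890-92349139, minus strand) hold an interferon-response-type match whose first base is 213 bases before the start and an NF-κB-type match 159 bases before it. Those of Gbp2 (chr3:142620413-142620662, plus strand) hold 1 interferon-response-type match, on the other strand, 59 bases before the start. Those of Isg15 (chr4:156200819-156201068, minus strand) hold 3 that overlap, 78, 72 and 66 bases before it. On the IL-4 side, Retnla (chr16:48842359-48842608, plus strand) and Clec7a (chr6:129472780-129473029, minus strand) hold a STAT6-type match 145 and 131 bases before the start. Matches were not found in the 250 bases before the annotated starts of Chil3, Egr2, Mrc1, Cish and Irf4 (STAT6-type) or Cxcl9, Cmpk2 and Ifit2 (interferon-response-type).
Cxcl10: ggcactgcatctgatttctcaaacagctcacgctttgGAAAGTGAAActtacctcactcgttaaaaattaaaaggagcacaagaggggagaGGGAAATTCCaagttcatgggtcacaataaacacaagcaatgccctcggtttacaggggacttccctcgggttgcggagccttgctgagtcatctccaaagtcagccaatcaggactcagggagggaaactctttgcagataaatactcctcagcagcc
Gbp2: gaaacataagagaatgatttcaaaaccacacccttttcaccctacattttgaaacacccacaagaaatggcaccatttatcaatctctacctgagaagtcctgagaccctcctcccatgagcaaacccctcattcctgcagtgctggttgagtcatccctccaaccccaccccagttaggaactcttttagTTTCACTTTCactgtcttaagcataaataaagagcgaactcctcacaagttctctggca
Isg15: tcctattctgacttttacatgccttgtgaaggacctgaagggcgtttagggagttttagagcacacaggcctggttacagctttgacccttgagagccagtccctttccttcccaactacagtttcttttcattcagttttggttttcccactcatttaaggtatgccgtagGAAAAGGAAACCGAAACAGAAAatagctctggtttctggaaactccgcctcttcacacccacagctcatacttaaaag
Retnla: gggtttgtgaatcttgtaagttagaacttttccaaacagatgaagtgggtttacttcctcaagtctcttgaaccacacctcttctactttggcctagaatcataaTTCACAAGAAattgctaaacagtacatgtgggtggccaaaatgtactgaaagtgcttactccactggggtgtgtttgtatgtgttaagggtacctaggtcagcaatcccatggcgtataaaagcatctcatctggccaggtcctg
Clec7a: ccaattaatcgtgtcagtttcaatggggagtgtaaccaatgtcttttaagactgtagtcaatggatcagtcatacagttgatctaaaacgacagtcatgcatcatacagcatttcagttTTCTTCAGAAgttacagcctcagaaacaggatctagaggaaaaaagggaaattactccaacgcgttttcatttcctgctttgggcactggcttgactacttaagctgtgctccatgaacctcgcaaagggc

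NF-κB subunits, inhibitors and feedback genes lay on both sides. Of 25 measured, 7 (28.0%) were higher after LPS and 4 (16%) after IL-4, beside 10.5% and 39.4% of all genes, with a median of 0.32 beside -0.745. Under the median ratio the counts were 15 and 3, beside 19.8% and 16.2%. Against the untreated library, 19 of the 25 were higher after LPS and 18 after IL-4, and 0 were lower after either (20, 17 and 0 under the median ratio). The inhibitor Nfkbia (IκBα) had 58.1 CPM without treatment, 301 CPM after LPS and 198 CPM after IL-4, and the adhesion molecule Icam1 had 38.1, 436 and 423 CPM. The mitochondrial superoxide dismutase Sod2 had 87.4, 1269 and 211 CPM and led the LPS side. The p105/p50 subunit gene Nfkb1 had 86.9, 135 and 583 CPM, the c-Rel gene Rel had 35.7, 43.7 and 188 CPM, and Rela, the p65 subunit gene, had 83.1, 95.9 and 100.4 CPM. Nfkb1 and Rel were thus higher after IL-4 than in both other WT libraries, and in cKO cells their levels after LPS and IL-4 were 191 and 588 CPM for Nfkb1 and 59.9 and 184 CPM for Rel.

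**Figure D3:**
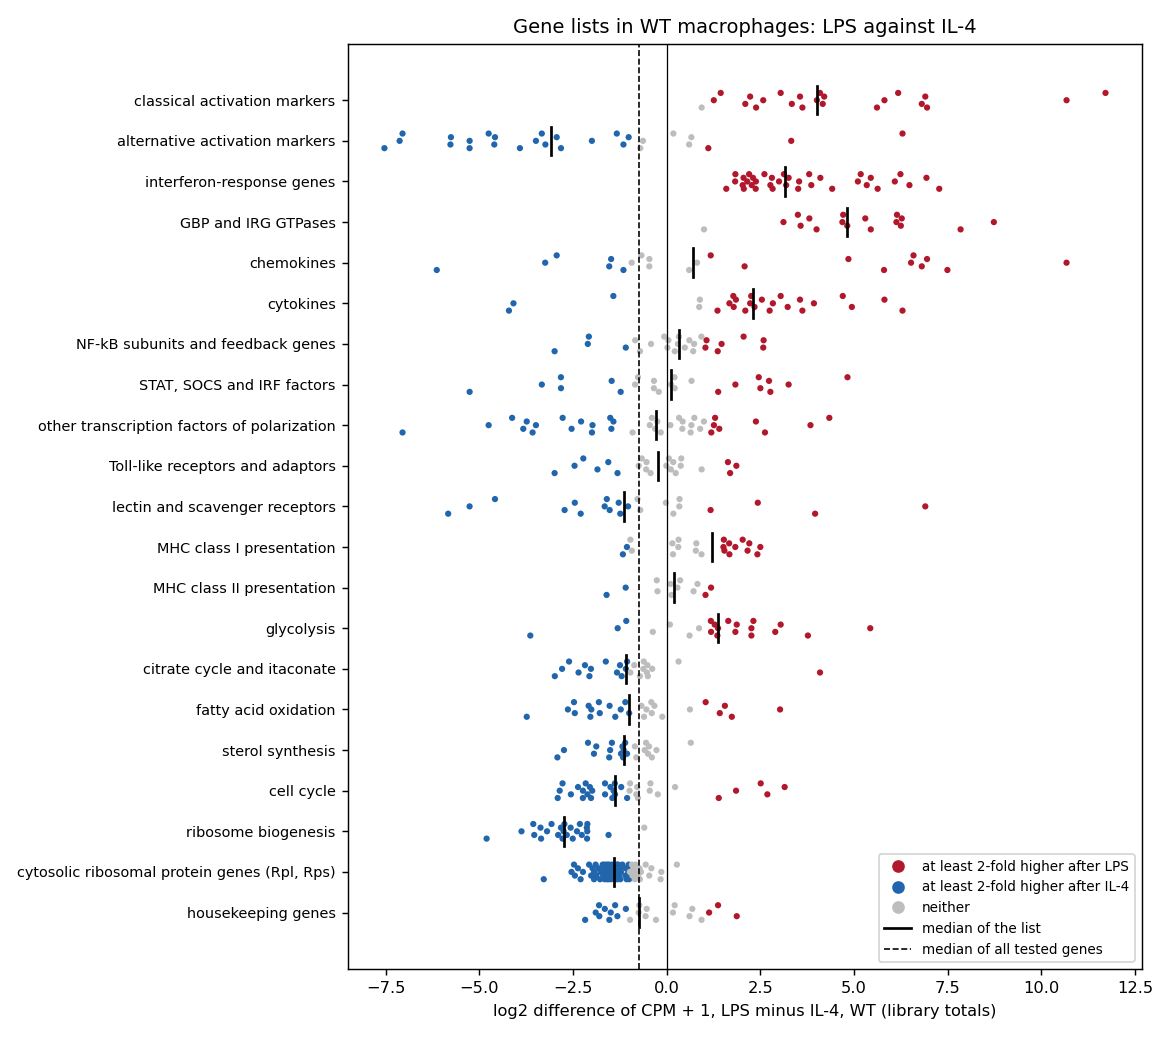
Each point is a measured gene of 1 of 21 gene lists, placed by its log2 difference of CPM + 1 (LPS minus IL-4, WT); black bars are list medians and the dashed line is the median of all genes compared, -0.745. Interferon-response genes and GTPases lie to the right of 0, ribosome biogenesis and nearly all ribosomal protein genes lie to the left, and NF-κB genes lie around 0, with their median to the right of the dashed line.

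Among signal transducers, 8 of 23 measured STAT, SOCS and IRF genes were higher after LPS and 6 after IL-4 (12 and 4 under the median ratio). Socs3, an inhibitor of IL-6 signalling, had 2.98 CPM without treatment, 767 CPM after LPS and 26.1 CPM after IL-4, and Irf7, the factor that amplifies type I interferon, had 503, 4293 and 449.8 CPM. Cish and Socs2, inhibitors that STAT5 and STAT6 are known to induce, had 0.229, 5.18 and 61.3 CPM and 0.382, 2.85 and 26.2 CPM. Irf4, a factor of alternative activation, had 1.87, 1.00 and 75.8 CPM and was 75.5-fold higher after IL-4 (95% limits 51.0 and 117). Stat6 itself had 141 and 241 CPM and Irf8, a factor of the myeloid lineage, 359 and 227 CPM, and neither passed 2-fold.

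Of 38 other transcription factors, 8 (21.1%) were higher after LPS and 15 (39.5%) after IL-4, beside 10.5% and 39.4% of all genes. Under the median ratio 14 and 12 were, beside 19.8% and 16.2% of all genes. Batf2 (6.37, 159.6 and 6.94 CPM) and Cebpb (53.0, 181 and 28.6 CPM), a factor of acute-phase genes, were on the LPS side. Myc had 52.2, 0.120 and 29.2 CPM, with 3 counts after LPS against 829 after IL-4, a ratio of 242 with 95% limits of 82.7 and 1178. Cebpa had 191, 12.3 and 231 CPM, and Pparg, a nuclear receptor of lipid handling, had 65.5, 3.53 and 59.4 CPM. For Myc, Cebpa and Pparg the untreated level lay near that after IL-4 or above it, and the LPS level alone was low. Batf3 (1.64, 2.61 and 39.6 CPM) and the microphthalmia-family factor Tfec (13.5, 5.14 and 86.3 CPM) were highest after IL-4.

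Sensing and uptake receptors differed gene by gene. Of 22 Toll-like receptor and adaptor genes, 3 were higher after LPS and 6 after IL-4 (8 and 3 under the median ratio). Their median of -0.22 changed sign to 0.51 under the median ratio. Tlr2, the receptor of bacterial lipopeptides, had 23.9, 27.0 and 222 CPM, and the LPS receptor Tlr4 had 80.7, 37.2 and 137 CPM, a log2 difference of -1.85 that became -0.95 under the median ratio. Tlr9, the receptor of unmethylated DNA, had 20.9, 261 and 83.5 CPM. Of 22 lectin and scavenger receptors, 4 were higher after LPS and 12 after IL-4, which became 6 and 6 under the median ratio. The bacteria-binding receptor Marco had 109, 400.1 and 2.36 CPM and the lectin Clec4e (Mincle), which senses mycobacterial glycolipid, 50.1, 737 and 46.4 CPM. On the IL-4 side the oxidised LDL receptor Olr1 had 0.153, 0.964 and 111 CPM, and Cd36, which takes up fatty acids, had 2494, 259 and 1425 CPM. Cd36 was below its untreated level in both treated libraries, unlike Olr1.

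Antigen presentation genes of class I stood on the LPS side, with 11 of 22 measured higher after LPS and 2 higher after IL-4, and 18 and 0 under the median ratio. The transactivator Nlrc5 had 77.9, 319 and 55.7 CPM, the peptide transporter Tap1 had 180.2 and 924 CPM in the first 2 of these libraries and was 4.62-fold higher after LPS than after IL-4, and the immunoproteasome subunit Psmb9 had 58.5, 336 and 61.9 CPM. The class I heavy chains, whose sequences are alike, differed less: H2-K1 had 1228, 3485 and 3105 CPM and was above its untreated level in both treated libraries. Of 12 class II genes, 2 were higher after LPS (H2-Ab1 and H2-Aa) and 2 after IL-4 (H2-DMb2 and the thiol reductase Ifi30), but under the median ratio 7 were higher after LPS and 0 after IL-4. The class II transactivator Ciita had 1.37, 18.8 and 22.5 CPM and the invariant chain Cd74 had 273, 786 and 946 CPM, so both were above the untreated level after either treatment and under 2-fold apart. Of 15 costimulatory and checkpoint ligands, 6 were higher after LPS and 4 after IL-4 (7 and 3 under the median ratio), and the PD-1 ligands lay on opposite sides. Cd274 (PD-L1) had 172, 2662 and 474 CPM, while Pdcd1lg2 (PD-L2) had the levels given above.

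Glycolysis genes were higher after LPS in 15 of 22 cases and higher after IL-4 in 3, against 10.5% and 39.4% of all genes compared, and the median was 1.36. Under the median ratio the counts were 18 and 1. Pfkfb3, which makes the activator of phosphofructokinase 1, had 52.7 CPM without treatment, 891 CPM after LPS and 19.7 CPM after IL-4. Its paralog Pfkfb4 went the other way, with 39.4, 11.7 and 158 CPM. Lactate dehydrogenase (Ldha) had 1262, 2955 and 617 CPM, the lactate exporter Slc16a3 had 102, 712 and 94.8 CPM, and hexokinase 3 (Hk3) had 653, 2063 and 151 CPM. For Ldha and Hk3 the untreated level lay between those after LPS and IL-4. Against the untreated library, 10 glycolysis genes were higher and 2 lower after LPS, and 2 were higher and 5 lower after IL-4. Under the median ratio these counts were 17, 1, 2 and 7. The matching shares of all genes were 10.2%, 31.4%, 9.93% and 5.84%, and 17.6%, 14.8%, 8.15% and 7.47% under the median ratio.

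Of 24 genes of the citrate cycle, 13 (54.2%) were higher after IL-4 and 1, Acod1, higher after LPS, beside 39.4% and 10.5% of all genes, and 7 and 2 under the median ratio. The list median was -1.07 beside -0.745, and -0.17 under the median ratio. The isocitrate dehydrogenase genes Idh1 (136, 23.5 and 124 CPM), Idh2 (77.9, 5.02 and 40.7 CPM) and Idh3a (45.1, 6.18 and 42.8 CPM) were all lowest after LPS. The succinate-CoA ligase subunit Suclg2 had 25.9, 2.53 and 27.0 CPM, while the genes of succinate dehydrogenase differed little, with 84.6 and 120.4 CPM for Sdhb. Compared with untreated cells, 11 of the 24 were lower and 1 higher after LPS, and 0 were lower and 2 higher after IL-4. Under the median ratio these counts were 6, 1, 1 and 1. In the same order, the shares of all genes were 31.4%, 10.2%, 5.84% and 9.93%, and 14.8%, 17.6%, 7.47% and 8.15% under the median ratio. The oxidative phosphorylation subunit genes encoded in the nucleus had a median of -0.57 beside -0.745 for all genes, and few of them were called. Of 79 measured, 1 (1.27%) was higher after LPS and 15 (19.0%) after IL-4, beside 10.5% and 39.4% of all genes, and under the median ratio 3 and 2 were.

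**Figure D4:**
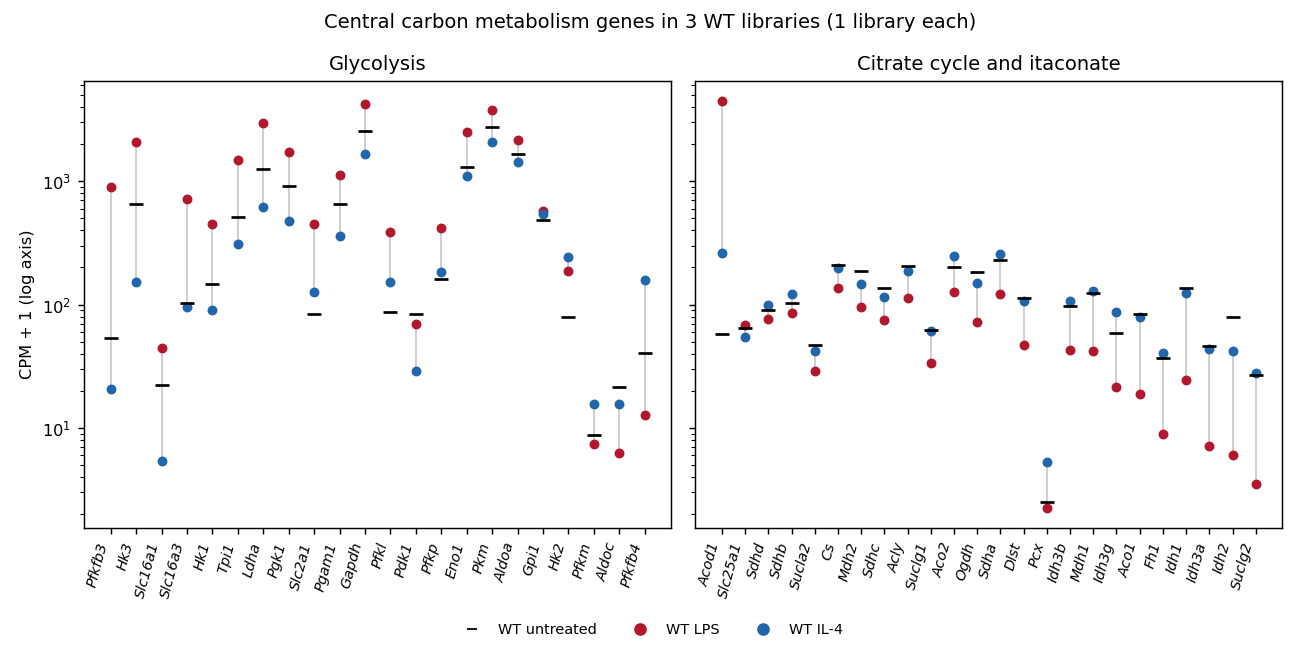
Levels of 22 glycolysis genes (left) and 24 citrate cycle and itaconate genes (right) in the 3 WT libraries, as CPM + 1 on a log axis, ordered by their LPS to IL-4 ratio, with dashes for untreated, red for LPS and blue for IL-4 (1 library each). Most glycolysis genes have the LPS library on top, and for the citrate cycle genes after Slc25a1 the IL-4 library lies above the LPS library.

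The balance of lipid genes depended on the scaling. Of 27 fatty acid oxidation and lipid uptake genes, 14 were higher after IL-4 and 5 after LPS (7 and 6 under the median ratio). Lipoprotein lipase (Lpl) had 5847, 415 and 1678 CPM and the dehydrogenase of medium-chain fatty acids, Acadm, had 57.8, 12 and 71.3 CPM. The fatty acid binding protein Fabp5 had 1677, 657 and 79.9 CPM and was on the LPS side, though highest without treatment. Of 23 sterol synthesis genes, 14 were higher after IL-4 and 0 after LPS, which became 5 and 1 under the median ratio. Of 14 genes of the liver X receptor and of cholesterol efflux, 3 were higher after IL-4 and 2 after LPS, which became 1 and 5. Dhcr7, an enzyme of the last step of cholesterol synthesis, had 24.8, 2.65 and 26.6 CPM. Ch25h, which makes 25-hydroxycholesterol and is interferon-inducible, had 0.687, 154 and 12.5 CPM, and the efflux transporter Abca1 had 276, 116 and 421 CPM.

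Genes of prostanoid and leukotriene synthesis lay on both sides. Ptgs1 had 5.61 CPM without treatment, 0.924 CPM after LPS and 199 CPM after IL-4, so LPS and IL-4 stood in the opposite order to that of Ptgs2. The inducible prostaglandin E synthase Ptges had 4.20, 208 and 10.4 CPM, and leukotriene C4 synthase (Ltc4s) had 2.02, 0.161 and 49.8 CPM. Of the 15 genes measured, 3 (20%) were higher after LPS and 7 (46.7%) after IL-4, beside 10.5% and 39.4% of all genes (4 and 5 under the median ratio).

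Ribosome biogenesis genes were low after LPS. Of 25 ribosome biogenesis genes, 24 were higher after IL-4 and 0 after LPS, with a median of -2.73, and 23 kept the call under the median ratio. The rRNA-processing factor Utp20 had 58.9 CPM without treatment, 1.2 CPM after LPS and 60.7 CPM after IL-4, and nucleolin (Ncl) had 427, 98.8 and 435 CPM. All 25 were lower after LPS than without treatment, and 1 was lower and 0 higher after IL-4 (24, 2 and 0 under the median ratio). Of 78 cytosolic ribosomal protein genes, 61 were higher after IL-4 and 0 after LPS, but 13 and 1 under the median ratio, a share close to the background of 16.2%. Against the untreated library, 48 of the 78 were lower after LPS under library totals and 8 under the median ratio, beside 31.4% and 14.8% of all genes. Aminoacyl-tRNA synthetase genes, which charge tRNAs with their amino acids, were higher after IL-4 in 11 of 18 cases and higher after LPS in 1 (7 and 2 under the median ratio). Of 35 cell cycle genes, 21 were higher after IL-4 and 5 after LPS, and 13 and 5 were under the median ratio. Topoisomerase Top2a had 8.81, 1.41 and 15.5 CPM and the replication helicase subunit Mcm6 had 137, 16.9 and 129 CPM. The genes on the LPS side were the cyclins Ccnd1, Ccnd2, Ccnd3 and Ccne1 and the polymerase clamp Pcna, and Ccnd2 had 5.23, 43.7 and 4.05 CPM.

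Secreted proteins and surface receptors included some of the sharpest contrasts. The protease inhibitor Timp1 had 0.954 CPM without treatment, 135 CPM after LPS and 1.2 CPM after IL-4, while fibronectin (Fn1) had 3.28, 2.29 and 246 CPM. Of 20 matrix genes, 9 were higher after LPS and 6 after IL-4 (11 and 3 under the median ratio). Complement and coagulation genes lay on both sides. Of 19 measured, 9 (47.4%) were higher after LPS and 7 (36.8%) after IL-4, beside 10.5% and 39.4% of all genes (9 and 3 under the median ratio). C1qa, a chain of the first component, had 133, 86.9 and 1529.7 CPM, and C3 had 169, 3196 and 1440.0 CPM. The other chains C1qb and C1qc had 1236 and 2457 CPM and 676 and 2104 CPM after LPS and IL-4. C1qb was just under 2-fold apart and not called, and C1qc was not called under the median ratio. The clotting factors also lay on both sides, with 506 and 25.7 CPM for factor X (F10) and 1.12 and 48.0 CPM for the transglutaminase F13a1. Among 28 chemoattractant, purine and lipid receptors, 9 were higher after LPS and 13 after IL-4 (10 and 8 under the median ratio). Cx3cr1 had 2.56, 0.120 and 217 CPM and the CXCL12 receptor Cxcr4 had 38.5, 5.18 and 341 CPM. The formyl peptide receptor Fpr1 had 1.22, 47.7 and 2.04 CPM and the nicotinic acid receptor Hcar2 had 0.839, 59.6 and 1.23 CPM.

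Iron, redox and lysosome genes had members on both sides, and their balance moved to LPS under the median ratio. Of 16 iron and heme genes, 7 were higher after LPS and 3 after IL-4 (9 and 1 under the median ratio). Heme oxygenase 1 (Hmox1) had 608, 2457 and 288 CPM, and the transferrin receptor Tfrc had 239.9, 6.63 and 114 CPM. The ferritin light chain Ftl1 had 17659, 6886 and 11669.6 CPM, so under library totals the ferritin chains differed in the order of LPS and IL-4. This difference in Ftl1 was under 2-fold and smaller than the shift between the scalings. Of 20 antioxidant genes, 6 (30%) were higher after LPS and 8 (40%) after IL-4, beside 10.5% and 39.4% of all genes. Peroxiredoxin 1 (Prdx1) led the LPS side with 2098, 5921 and 528 CPM. The IL-4 side held the regulator Nfe2l2 (NRF2) with 223, 87.9 and 247 CPM. Nfe2l2 lost its call under the median ratio (log2 difference -0.57 in place of -1.48). Under it the antioxidant counts were 8 and 2. Of 30 lysosome genes, 7 (23.3%) were higher on each side, beside 10.5% and 39.4% of all genes, and 13 were higher after LPS and 3 after IL-4 under the median ratio. Cathepsin K (Ctsk) had 20.7, 30.8 and 1.30 CPM.

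Of the 8 macrophage markers, 2 (25%) were higher after LPS and 2 (25%) after IL-4, beside 10.5% and 39.4% of all genes. Under the median ratio 3 and 1 were, beside 19.8% and 16.2% of all genes. The high-affinity IgG receptor Fcgr1 (CD64) had 788, 1939 and 127 CPM and the apoptotic-cell receptor Mertk had 98.8, 297 and 88.1 CPM. Adgre1 (F4/80) had 1072, 1181 and 2476 CPM, with a log2 difference of -1.07 that shrank to -0.15 under the median ratio. Of 24 housekeeping genes, 3 (12.5%) were higher after LPS, Pgk1 and Gapdh among them, and 10 (41.7%) after IL-4. These shares lay near the 10.5% and 39.4% of all genes, and the median of -0.74 lay near -0.745. Under the median ratio the counts were 8 and 1, beside 19.8% and 16.2% of all genes. Actb had 8511, 10237 and 6722 CPM.

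The same contrast was available in Zmynd8 cKO macrophages, as libraries with the same treatments from another genotype and not as replicates. Of 13140 genes compared there, 1222 (9.30%) were higher after LPS and 4864 (37.0%) after IL-4. Of the 1393 genes higher after LPS in WT, 1102 (79.1%) were also at least 2-fold higher in cKO cells and 1380 had the same sign, and of the 5219 higher after IL-4, 4295 (82.3%) and 5203 did so. For 4 genes both genotypes passed 2-fold in opposite directions. Classical activation markers were higher after LPS in 20 of 24 measured in cKO cells, with a median of 2.85 beside 4.01 in WT, and interferon-response genes in 35 of 36, with 2.38 beside 3.16. By ratio, and not by difference in CPM, several members differed more between the genotypes after IL-4 than after LPS. Cxcl10 had 3072 CPM after LPS in cKO cells beside 2859 in WT, but 97.8 CPM after IL-4 beside 22.2. Acod1 had 1166 CPM after IL-4 in cKO cells beside 260.2 in WT, and 5427 beside 4447 CPM after LPS. Alternative activation markers were higher after IL-4 in 19 of 27 measured in cKO cells, with a median of -3.32 beside -3.09.

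**Figure D5:**
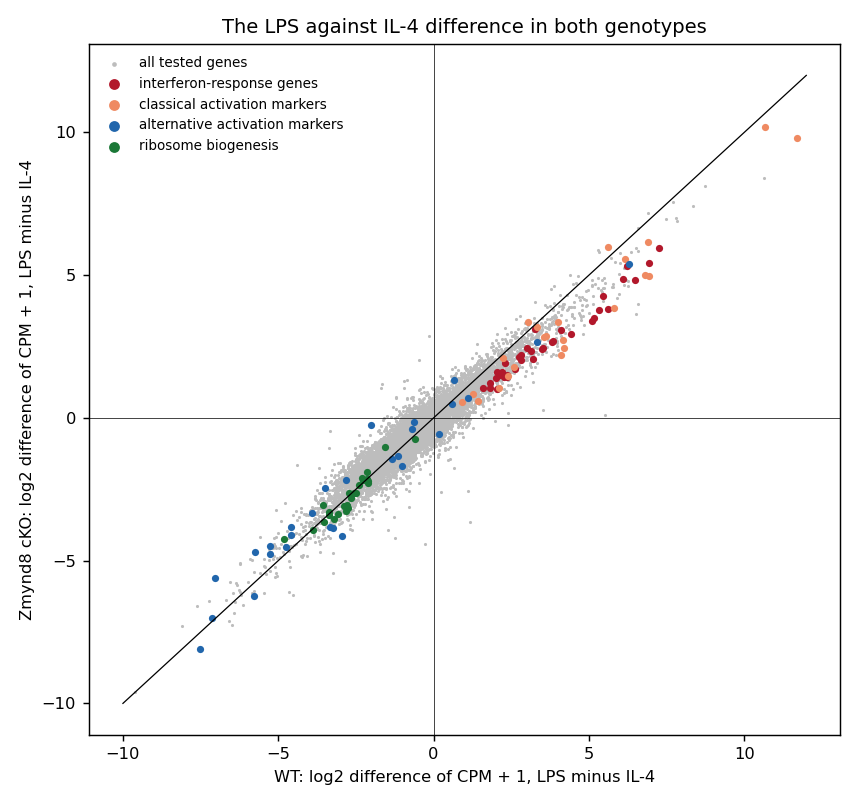
Each grey point is a gene compared in both genotypes, with its log2 difference of CPM + 1 (LPS minus IL-4) in WT on the x axis and in Zmynd8 cKO on the y axis, and 4 gene lists are coloured; each axis rests on 1 library per treatment. The points follow the line of equal differences, and most interferon-response genes lie below it, with list medians of 3.16 in WT and 2.38 in cKO.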

How the data were processed

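RNA of BMDMs was sequenced from polyadenylated transcripts, and the authors aligned the reads with TopHat to the mm10 transcriptome. The authors deposited estimated counts, unscaled, of which 75.2% to 76.6% of the values above 0 are exactly whole as written, and TPM, which scale counts by gene length and library. The deposited fold changes and p-values of the authors' own comparisons of genotypes were not used. Here CPM were computed from the rounded counts and their sum over all genes. A gene needed a mean of at least 10 counts over both libraries and a difference of at least 2-fold in CPM plus 1 to be called. Each treatment has 1 WT library, so no test of the conditions was possible within WT, a fit with the cKO libraries in the place of replicates was not run, and exact limits on reads cover counting error only. At-least folds use a floor of 3 counts per library. The script for scaling and calls was tested on simulated data.

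Members were described in 40 hand-written lists and 9 gene families, whose members were chosen with earlier results of these data known, and 696 of 698 list genes were found. Genes are named for being Nos2 or Arg1, for being among the 15 largest log2 differences with a mean of at least 100 counts or the 10 largest CPM differences per side, for being list members with the largest differences or highest CPM, or for being named by the study. Other list members named as an exception or a contrast were chosen after their values were seen. The 6 libraries, each of them a group of 1, had the totals given above, where 1 read is about 0.04 CPM. Alternatives were TMM and median-ratio scaling, other pseudocounts, filters and folds, TPM, and genes of like length in both tables. Python 3.11.15, numpy 2.4.6, pandas 2.3.3 and scipy 1.17.1 were used. Promoter windows and gene positions came from RefSeq tables of GRCm38.p6. ChIP-seq, ATAC-seq and Raw264.7 samples were not used here.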

Additional observations from a re-analysis of the deposited data

Results flagged for a closer look

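Cnbd2 stood on opposite sides in the genotypes. It had 82.2 CPM after LPS and 37.2 CPM after IL-4 in WT cells, a log2 difference of 1.12, and 10.2 and 64.3 CPM in cKO cells, a log2 difference of -2.54. The counts behind these levels were 2046 and 1056 in WT and 239 and 1681 in cKO cells. With 1 library per treatment and genotype, the difference between genotypes was not tested.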

How the results depend on the processing

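Under library totals, 1393 genes were called higher after LPS and 5219 after IL-4. The counts became 2351 and 2502 with TMM factors, 2624 and 2143 with the median ratio, 617 and 1569 at a fold of at least 4, and 2604 and 8946 at a fold of at least 1.2, the cut-off in the study's methods, which a legend gives on the log2 scale. They were 2475 and 8726 when the lower fold was joined to a Benjamini-Hochberg adjusted p under 0.05 from exact binomial tests of the reads, which compare the libraries and not the conditions. Among the 9196 genes of like effective length in both tables they were 926 and 3465 (10.1% and 37.7%), and among genes of equal listed length, an alternative added after seeing the data, 361 and 881 of 2779 genes (13% and 31.7%, beside 10.5% and 39.4% of all genes). Against the untreated library, 1345 genes higher and 4162 lower after LPS became 2325 and 1959 with the median ratio, also added after seeing the data. The other alternatives (a pseudocount of 0.1, no filter, a mean of at least 50 counts, TPM, totals without the 20 most abundant genes, and exact limits on the reads) stayed within 1.5 times the first counts. Of the 671 genes with a value under each scaling, 82 changed sign with TMM and 96 with the median ratio. The complement gene C2 had a log2 difference of 2.05 from counts and -2.86 from the deposited TPM, and the cause was not tested. No paired analysis was possible because each treatment has 1 WT library. The exact limits on the reads cover the depth alone, and the spread between cultures is unknown with 1 library per treatment.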

Other observations

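Aside from the 2 predicted genes named in the report, the 20 genes without a count in any untreated or LPS library included Slc39a5, Cacna2d3 and Klhl33, with 505, 447 and 396 counts after IL-4 in WT and 486, 462 and 323 in cKO cells. These genes were chosen after their values were seen.

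The mitochondrial gene mt-Co3 had 1227 counts after LPS and 3 after IL-4 in WT cells, and 1302 and 1357 in cKO cells, so the low value stood in the IL-4 library of WT cells and not in that of cKO cells.

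Of 19 measured dual-specificity phosphatase (DUSP) genes, 6 were higher after LPS and 6 after IL-4, and 8 and 4 under the median ratio. Of those known as MAP kinase phosphatases, Dusp1, Dusp2, Dusp5, Dusp10 and Dusp16 were higher after LPS and Dusp4 after IL-4. Of 41 measured TRIM genes, 11 were higher after LPS and 14 after IL-4, beside 10.5% and 39.4% of all genes compared, but 16 and 5 under the median ratio. Of 10 measured MS4A genes, 5 were higher after LPS and 3 after IL-4 (5 and 1 under the median ratio), and Ms4a3, on the IL-4 side, had no count in any untreated or LPS library.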
